A study of Rattus norvegicus with 6 samples.

Results

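Described here are 34 genes of the heat shock response and the unfolded protein response, in brain RNA of SPORTS and wild type rats. They were chosen by name from general knowledge of the 2 pathways, with earlier results of these data known. A probe was matched to 31 of the 34 genes through its transcript accession, and 29 genes, on 38 of their 40 matched probes, were bright enough to be tested among 11032 tested genes in all. Each group held 3 male rats of Wistar background, 15 weeks old and kept without exercise. The SPORTS rats belonged to a hyperactive mutant line, the other rats carried the genotype given as wild type, and the labels name no treatment for either group. The labels name neither the mutated gene of the line nor a brain region, and they do not say whether the wild type rats came from the same colony. One single-colour array was hybridised with the RNA of each rat.

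Heat shock proteins are chaperones that bind unfolded polypeptides, and in the cytosol their genes are induced by the transcription factor HSF1 when misfolded protein accumulates. The endoplasmic reticulum (ER), where secreted and membrane proteins fold, has its own chaperones and 3 sensors of misfolded protein, ATF6, IRE1 (encoded by Ern1) and PERK (encoded by Eif2ak3). These sensors act through cleaved ATF6, spliced XBP1 and the translation of ATF4, and together they form the unfolded protein response. Neurons, as secretory and long-lived cells, rely on both systems.

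The members were read in 5 classes, which are 10 cytosolic chaperones, 3 mitochondrial chaperones, 11 chaperones and folding enzymes of the ER, 7 sensors and transcription factors, and 3 other targets of the responses. Promoter sequence was not used to choose the genes. The stretches printed here show members with an exact match to a classical stress element just before their start sites. The 250 bases before the start were taken from RefSeq (build GRCr8) for the 27 members with an entry. Hspa1b, Hsp90aa1, Pdia3, Pdia6, Hsf1, Atf6 and Ern1 had no entry and were not searched. Both strands were searched for exact matches to 4 motifs, so variant sites and sites further away would be missed. The first, the ER stress response element (CCAAT and CCACG, 9 bases apart), is bound by NF-Y and ATF6 or XBP1. It was found in 22 of 33469 windows of all genes (0.0657%), and 7 members were among the 21 genes concerned. The capitals mark the matched bases, and a match on the opposite strand appears as its reverse complement. Each stretch reads towards its gene, with 15 bases shown on each side of the match where the window allows.

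Hspa5, chr3:38452958-38453006, + strand: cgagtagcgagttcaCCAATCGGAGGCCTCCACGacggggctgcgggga
Hsp90b1, chr7:23012332-23012484, - strand: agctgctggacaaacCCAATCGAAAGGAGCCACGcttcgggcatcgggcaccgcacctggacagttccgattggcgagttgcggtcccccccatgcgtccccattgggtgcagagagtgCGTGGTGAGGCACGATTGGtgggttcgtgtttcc
Creld2, chr7:121789224-121789272, + strand: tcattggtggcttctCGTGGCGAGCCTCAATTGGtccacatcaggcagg
Canx, chr10:35158054-35158102, - strand: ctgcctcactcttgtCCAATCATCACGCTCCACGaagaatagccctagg
Xbp1, chr14:84604543-84604591, + strand: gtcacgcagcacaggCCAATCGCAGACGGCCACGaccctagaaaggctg
Dnajc3, chr15:102432519-102432567, + strand: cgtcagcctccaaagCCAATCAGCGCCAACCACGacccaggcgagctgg
Calr, chr19:40213120-40213168, + strand: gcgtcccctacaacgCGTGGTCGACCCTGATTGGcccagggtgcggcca

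The match began 43 bases before the start in Hspa5, 65 in Xbp1, 133 in Dnajc3, 145 in Creld2, 230 in Canx and 232 in Calr, and Hsp90b1 held 2 matches, at 176 and 72. Of the genes of the ER class with an entry, Dnajb9, Sdf2l1 and Pdia4 had no match to these letters in the window. The shorter element, ATTGG and CCACG with 1 base between them, found in 0.0418% of windows, was held by Herpud1.

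Herpud1, chr19:10614806-10614846, - strand: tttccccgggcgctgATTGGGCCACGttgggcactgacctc

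The heat shock element, the units GAA, TTC and GAA with 2 bases between neighbours, is the site of HSF1. It was found in 0.663% of windows and in 4 members, of which 2 were cytosolic and 2 mitochondrial. The cytosolic members Hspa1a, Hspb1, Hspb8, Hsp90ab1, Dnajb1 and Dnajb5 had an entry but no match to these exact letters in the window. Hspd1 and Hspe1 lie head to head and share the same matched bases, so that the stretch is shown once.

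Hspa8, chr8:50080286-50080486, + strand: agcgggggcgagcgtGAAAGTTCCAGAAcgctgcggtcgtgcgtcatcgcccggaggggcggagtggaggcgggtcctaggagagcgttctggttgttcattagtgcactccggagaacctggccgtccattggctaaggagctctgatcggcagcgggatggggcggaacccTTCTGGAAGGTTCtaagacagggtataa
Hsph1, chr12:10427317-10427359, + strand: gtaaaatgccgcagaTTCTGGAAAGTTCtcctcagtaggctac
Hspe1, chr9:64084247-64084294, + strand: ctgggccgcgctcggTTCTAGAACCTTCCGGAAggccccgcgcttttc

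The core of the CARE element, TGATGNAA, at which ATF4 acts, is short and was found in 3.4% of windows. It was held by Chac1, Trib3, Hspa9 and Herpud1, and the stretches of the first 2 are shown as the best known ATF4 targets among the members.

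Chac1, chr3:126795949-126795986, + strand: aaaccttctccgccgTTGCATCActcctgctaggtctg
Trib3, chr3:161275534-161275569, - strand: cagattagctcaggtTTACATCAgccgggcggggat

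Signals below are normalised log2 values, in which 0 is the 75th percentile of the processed signal of an array, and each difference is the SPORTS mean less the wild type mean on that log2 scale. A level of one probe cannot be set against that of another probe. Each array had 20325 to 23261 of the 30367 probes well above background and no saturated spot, and the small number of arrays sets the precision. By slide position, row 1 held wild type replicates 1 and 2, and row 2 held wild type replicate 3 with the SPORTS arrays. A contrast inside row 2, or with the row as a block, therefore uses a single wild type array. SPORTS replicate 1 stood apart on cerebellar markers, whose summed linear signal was 13.4 against 8.31 to 9.78 on the other 5 arrays, and on choroid plexus markers, at 67.9 against 128 to 145. Genes were called at an adjusted p under 0.05 in limma's moderated test over all tested probes. By the labels each rat gave 1 sample. The p-values set the group difference against the spread within the groups, moderated over all tested probes, and cover these 6 samples only.

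Most of the tested chaperone and stress response genes differed little between the lines. Of 29 tested members, 2 were higher and 3 lower in SPORTS, and 24 did not pass. The 5 called members are 17.2% of those tested, against 24.3% of all tested genes (12.9% higher and 11.4% lower). Shifting arrays by the median in place of the 75th percentile changed the share of higher genes among called probes from 52.3% to 41.6% and left these counts of members at 2 and 3. The genes that fell were Atf6, the ER stress sensor, on 1 of its 2 probes, Pdia4, an ER disulfide isomerase, and Dnajb5, a cytosolic cochaperone. Those that rose were Creld2 and Sdf2l1, both of the ER. The groups did not overlap for 13 of the 29 members, 8 higher and 5 lower in SPORTS. That is 44.8% of them, against 47.1% of all tested genes, of which 24.8% were higher. The median difference was 0.042 over the members and 0.007 over all tested genes, and the median absolute difference was 0.077 and 0.11. Without SPORTS replicate 1 the members called were 1 higher and 3 lower. When slide row entered the fit as a block they were 0 higher and 2 lower, and 8.34% of all tested genes were then called. At an unadjusted p under 0.05, 9 of the 29 members (31%) passed, against 39.3% of all tested genes.

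**Figure D1:**
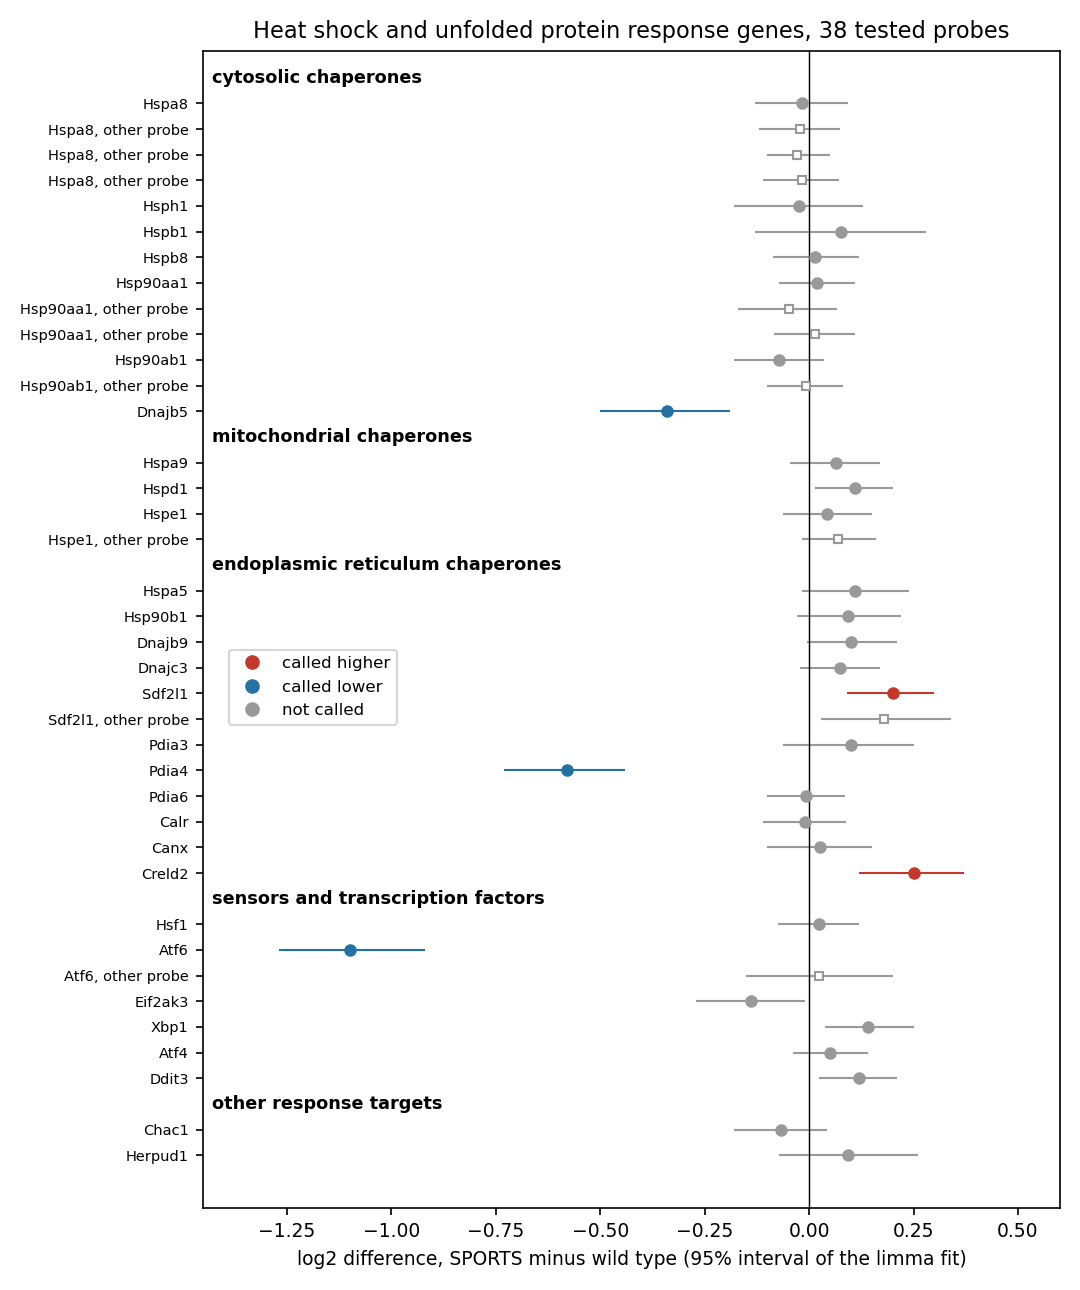
Log2 difference (SPORTS minus wild type) of each of the 38 tested probes, with the 95% interval of the limma fit, grouped by class. Filled circles are the probes that represent a gene, open squares are its other probes, and colour gives the call. The called probes are those of Atf6, Pdia4 and Dnajb5 left of 0 and of Creld2 and Sdf2l1 right of it. The intervals of Hspd1, Xbp1, Ddit3, Eif2ak3 and the second Sdf2l1 probe also leave out 0, without a call, and the other Atf6 probe lies at 0.024.

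Of the 10 cytosolic chaperones, 7 were tested, 1 fell and none rose, with a median difference of -0.018. Hspa8 encodes Hsc70, the constitutive cytosolic Hsp70, and its representative probe read 6.21, 6.21 and 6.31 in wild type and 6.24, 6.18 and 6.25 in SPORTS. The groups overlapped, and the difference was -0.018 ± 0.045 (SE, n = 3 per group; 95% interval -0.13 to 0.093). Its 3 other probes differed by -0.028 to -0.018, and none was called. The groups overlapped on 3 of the 4 Hspa8 probes, and the other probe was slightly lower on all SPORTS arrays (difference -0.028 ± 0.031).

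Hsp90aa1 and Hsp90ab1 encode the inducible and the constitutive cytosolic Hsp90. The representative probe of Hsp90aa1 read 4.47, 4.43 and 4.51 in wild type and 4.52, 4.49 and 4.47 in SPORTS, a difference of 0.019 ± 0.037. Its 2 other probes differed by -0.049 and 0.015, so that the signs of the 3 probes disagreed and none passed. Hsp90ab1 differed by -0.073 ± 0.044 on one probe and by -0.0072 ± 0.036 on the other, and its groups overlapped on both. Hsph1, an Hsp110 that exchanges the nucleotide of Hsp70, differed by -0.025, and the small heat shock genes Hspb1 and Hspb8 by 0.077 and 0.015. For the 6 cytosolic members that did not pass, the 95% intervals all included 0. They reached from -0.18 to 0.28, or from 1.14-fold lower to 1.21-fold higher, each for a single gene and without the block.

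Dnajb5, a J-domain cochaperone of Hsp70, was the cytosolic member that fell. It read -1.11, -1.29 and -1.21 in wild type and -1.48, -1.54 and -1.63 in SPORTS. All 3 SPORTS arrays were below all wild type arrays, and the signal fell by 0.34 ± 0.063 (SE), 1.27-fold lower (limma adjusted p = 0.0153). Blocking on slide row gave the same difference of -0.34 and ended the call (adjusted p = 0.114), as did row 2 alone (0.0986), dropping the filter on dim probes (0.0501) and leaving out SPORTS replicate 2 (0.0515). Over the alternatives its adjusted p ran from 0.00334 to 0.114. The stress-inducible Hsp70 genes Hspa1a and Hspa1b and the Hsp40 gene Dnajb1 had no probe matched by accession and were not analysed here, so these classical heat shock genes are absent from the class.

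None of the 3 mitochondrial chaperones passed, and their median difference was 0.064. Hspe1 encodes the cochaperonin Hsp10 and read 3.76, 3.81 and 3.87 in wild type and 3.83, 3.85 and 3.89 in SPORTS (difference 0.042 ± 0.043). Its other probe differed by 0.07 ± 0.036, and neither passed. Hspd1, the chaperonin Hsp60 itself, read 2.98, 3.04 and 3.07 in wild type and 3.14, 3.14 and 3.13 in SPORTS. Its groups did not overlap, but the difference of 0.11 ± 0.038 did not pass (adjusted p = 0.102), except with quantile normalisation and with a trended and robust variance (range over the alternatives 0.0419 to 0.497). Hspa9, the mitochondrial Hsp70, differed by 0.064 ± 0.044.

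All 11 ER chaperones and folding enzymes were tested, of which 2 rose, 1 fell and 8 did not pass. The median difference of the class was 0.094. Hspa5 encodes BiP, the Hsp70 of the ER that keeps the 3 sensors silent, and read 2.90, 2.78 and 2.76 in wild type and 2.97, 2.87 and 2.93 in SPORTS. Wild type replicate 1 overlapped with the SPORTS arrays, and the difference of 0.11 ± 0.051 did not pass (adjusted p = 0.196). Hsp90b1, the ER Hsp90, differed by 0.094 ± 0.05, Dnajb9 and Dnajc3, J-domain cochaperones of BiP, by 0.10 ± 0.043 and 0.074 ± 0.039, and the disulfide isomerase Pdia3 by 0.10 ± 0.064. None of these 4 passed. The lectin chaperones Calr and Canx and the isomerase Pdia6 differed by -0.0096, 0.027 and -0.0065. For the 8 members that did not pass, the 95% intervals included 0. They reached from -0.11 to 0.25, or from 1.08-fold lower to 1.19-fold higher, again for single genes without the block.

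Creld2, a resident ER protein that can also be secreted, read -1.87, -1.79 and -1.78 in wild type and -1.61, -1.61 and -1.49 in SPORTS. Every SPORTS array was above every wild type array, and the rise was 0.25 ± 0.051 (SE), or 1.19-fold (limma adjusted p = 0.0217). Sdf2l1, a partner of BiP and its J-domain cochaperones, read -0.27, -0.26 and -0.21 in wild type and -0.0045, -0.11 and -0.034 in SPORTS on its representative probe. The groups did not overlap there, and it rose by 0.20 ± 0.043, 1.15-fold (adjusted p = 0.0267). Its other probe read -1.26, -1.24 and -1.23 in wild type and -1.05, -1.18 and -0.95 in SPORTS, a difference of the same sign, 0.18 ± 0.063, that did not pass (adjusted p = 0.096).

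Both calls were close to the threshold. With the slide row as a block the differences were 0.21 for Creld2 and 0.16 for Sdf2l1 and the calls ended (adjusted p = 0.166 and 0.2). Creld2 also lost its call within row 2 (0.192), with no filter on dim probes (0.0663) and without wild type replicate 1 or 2 or SPORTS replicate 2 or 3 (0.0535 to 0.0614). Sdf2l1 lost its call within row 2 (0.243), without that filter (0.0794) and without wild type replicate 1 or 2 or SPORTS replicate 1 or 3 (0.076 to 0.0883). Their adjusted p ran from 0.00958 to 0.192 and from 0.00873 to 0.243 over the alternatives.

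Pdia4, which forms disulfide bonds in the ER, moved against the other called genes of its class. It read -2.71, -2.86 and -2.85 in wild type and -3.33, -3.46 and -3.38 in SPORTS. The gap between the groups was wider than the spread within either, and it fell by 0.58 ± 0.059 (SE), 1.5-fold lower (limma adjusted p = 0.00242). Among all tested genes, 5.23% were called with a difference of at least this size. In the blocked fit it fell by 0.54 (adjusted p = 0.034), and the call was kept in all 18 alternatives, with differences from -0.62 to -0.40 and adjusted p from 0.00057 to 0.0425.

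**Figure D2:**
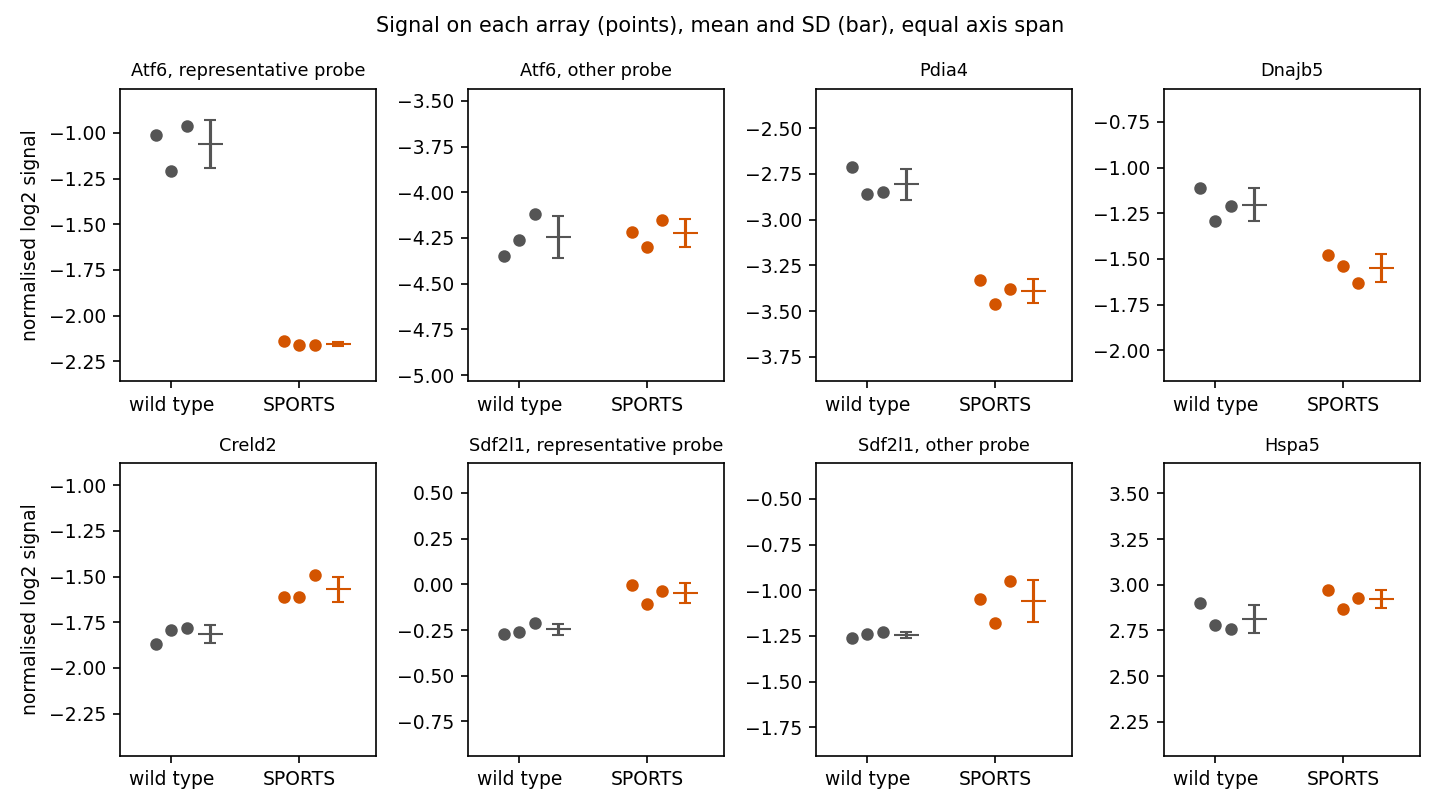
Normalised log2 signal of each array (points, 3 wild type and 3 SPORTS rats) with the mean and SD beside them, for the called members, the second probes of Atf6 and Sdf2l1, and Hspa5. All panels span the same number of log2 units, so that the heights of the steps can be compared. The groups are apart for the called probes, while the other Atf6 probe and Hspa5 overlap.

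The cytosolic and ER classes were set against each other as classes, without a test, since genes are not replicates. Each gene was centred on its wild type mean, and the median of the class was taken on each array. The cytosolic median was -0.0021, -0.036 and 0.056 in wild type and -0.0054, -0.046 and -0.0023 in SPORTS, and the groups overlapped. The ER median was 0.044, -0.027 and -0.0065 in wild type and 0.092, 0.036 and 0.12 in SPORTS, with SPORTS replicate 2 below wild type replicate 1. The difference between the classes was 0.046, 0.0086 and -0.063 in wild type and 0.10, 0.082 and 0.12 in SPORTS, so that it was higher on each SPORTS array. In the fitted values, the median of the ER class exceeded that of the cytosolic class by 0.11, from 0.063 without wild type replicate 3 to 0.12 over the alternatives, and by 0.12 with the slide row as a block. The pooled SD of this class difference over arrays was 0.041. The cytosolic class held 7 tested genes, without Hspa1a, Hspa1b and Dnajb1. In the further lists described below, the median was 0.029 for 33 other ER genes and 0.015 for 45 other cytosolic genes. Among all tested genes, the groups did not overlap for 47.1%. That share is of single genes in either direction and gives no rate for a difference between class medians. How often 2 sets of genes of these sizes would differ as much was not tested.

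**Figure D3:**
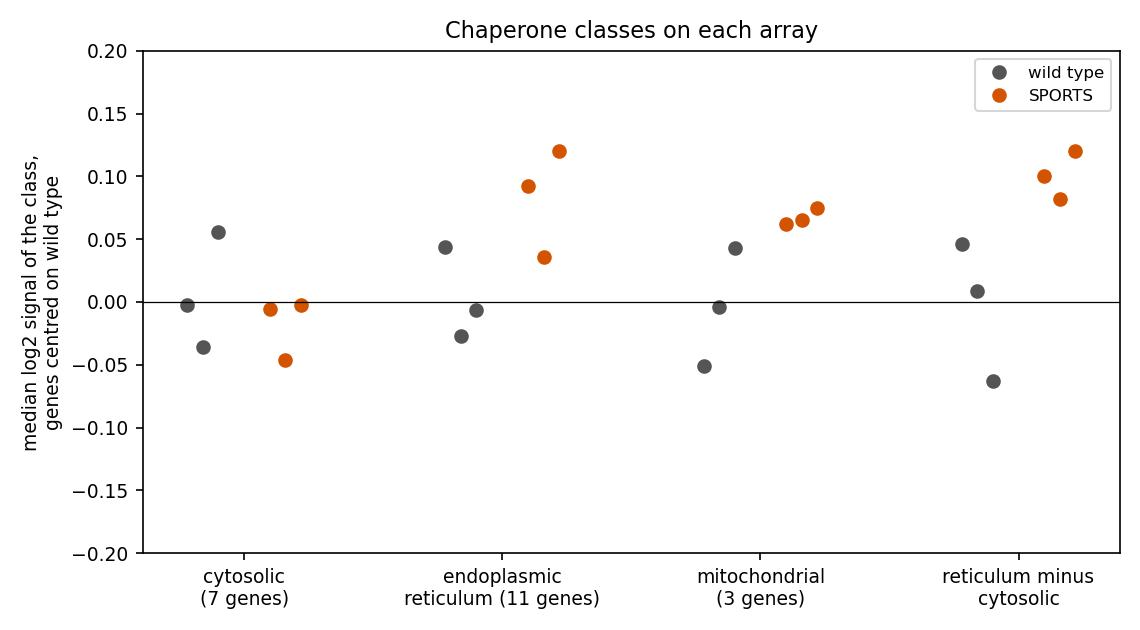
Median of the cytosolic (7 genes), ER (11 genes) and mitochondrial (3 genes) chaperones on each array, in log2 units with each gene centred on its wild type mean, and the ER median minus the cytosolic median. Grey points are wild type and orange points SPORTS. The last column shows the 3 SPORTS arrays between 0.082 and 0.12 and the wild type arrays between -0.063 and 0.046.

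The sensors and transcription factors were led by Atf6, whose protein is cut out of the ER and Golgi membrane under stress and enters the nucleus. Its representative probe, A_64_P033924, read -1.01, -1.21 and -0.96 in wild type and -2.14, -2.16 and -2.16 in SPORTS. The 3 SPORTS arrays were nearly identical and far below wild type, and the signal fell by 1.1 ± 0.069 (SE), 2.14-fold lower (limma adjusted p = 0.000517, range over the alternatives 9.32e-06 to 0.00695). Of all tested genes, 1.61% were called with a difference of at least this size.

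The second Atf6 probe, A_64_P033929, is assigned to the same transcript accession, NM_001107196, and did not follow. It read -4.35, -4.26 and -4.12 in wild type and -4.22, -4.30 and -4.15 in SPORTS, and was well above background on all 6 arrays. The groups overlapped, and the difference was 0.024 ± 0.072 (adjusted p = 0.852), with a 95% interval of -0.15 to 0.20. The fall was measured by 1 of the 2 probes only, and the files do not give the bases that each probe covers. With the slide row as a block the probes differed between the groups by -1.19 (adjusted p = 0.00528) and -0.10 (adjusted p = 0.497). Averaging the probes gave -0.54, and Atf6 was called lower in all 18 alternatives.

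The other sensors and factors did not pass. Eif2ak3, which encodes PERK, read -2.20, -2.27 and -2.36 in wild type and -2.46, -2.42 and -2.37 in SPORTS (difference -0.14 ± 0.054, adjusted p = 0.123). Xbp1, the factor spliced by IRE1, read 1.13, 1.2 and 1.24 in wild type and 1.36, 1.30 and 1.34 in SPORTS (0.14 ± 0.042, adjusted p = 0.0673). Ddit3, which encodes CHOP, a pro-apoptotic factor downstream of PERK, read 1.48, 1.5 and 1.5 in wild type and 1.66, 1.59 and 1.57 in SPORTS (0.12 ± 0.038, adjusted p = 0.0816). In each of these 3 genes the groups did not overlap, by a narrow margin, and Xbp1 and Ddit3 passed only with a trended and robust variance (adjusted p = 0.0263 and 0.0367). Atf4 read 3.23, 3.17 and 3.24 in wild type and 3.24, 3.28 and 3.27 in SPORTS, a difference of 0.05 ± 0.036 that did not pass. Hsf1, the master factor of the heat shock response, differed by 0.023 ± 0.04. Both Atf4 and PERK are regulated largely after transcription, as are ATF6 cleavage and XBP1 splicing, which the array does not measure. Ern1 was well above background on 1 wild type and 2 SPORTS arrays and was not tested.

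Of the other targets, Herpud1, which takes part in ER-associated degradation, read 0.75, 1.0 and 0.91 in wild type and 0.99, 0.99 and 0.97 in SPORTS, and did not pass (0.094 ± 0.067, adjusted p = 0.384). Chac1, a glutathione-degrading enzyme, differed by -0.068 ± 0.045 (adjusted p = 0.351). Trib3, a pseudokinase induced by ATF4 and CHOP, was above background on 1 wild type and 2 SPORTS arrays and was not tested. Set beside the promoter stretches, 6 of the 7 members with the full ER stress element had a positive difference, of 0.027 (Canx) to 0.25 (Creld2), and Calr was at -0.0096. With quantile normalisation or a median shift Canx was below 0 too, at -0.0023 and -0.013, so that 5 of the 7 were above 0. Of all 14 tested genes with that element, 9 (64.3%) were above 0, as were 51.8% of all tested genes and 65.5% of the tested members. The 14 include the 7 members. Among the rest, Derl3, Hnrnpa3 and Zfp57 were above 0, and Ankmy2, Birc5, Ppm1l and Zfand2a were below 0. Of these 14, 1 was called higher and 0 lower, and the median was 0.03. The members with a heat shock element lay between -0.025 (Hsph1) and 0.11 (Hspd1), and none of them passed.

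The rest of the pathways was read from 4 further lists of 128 genes, of which 114 were tested, 19 rose and 7 fell. These 26 are 22.8% of the tested genes of the lists, against 24.3% of all tested genes, and the share called in each list lay between 20% and 30.8%. Their median was 0.019, and their differences ran from -1.17 to 2.04, against -1.1 to 0.25 among the members. Of 45 other cytosolic chaperones and cochaperones, 7 rose and 2 fell (median 0.015). Bag3, a cochaperone that passes clients of Hsp70 and Hspb8 to autophagy, read -0.80, -0.51 and -0.59 in wild type and 0.25, 0.13 and 0.20 in SPORTS. It rose by 0.83 ± 0.084 (SE), 1.77-fold (limma adjusted p = 0.00236), and by 0.79 in the blocked fit (adjusted p = 0.0336). Also higher were Hsf4, a heat shock factor gene (0.78 ± 0.13), Cryab, the small heat shock protein alphaB-crystallin (0.44 ± 0.07), and Dnajb6, which suppresses aggregation (0.28 ± 0.053). Dnajc5, the cysteine string protein of synaptic vesicles, fell by 0.27 ± 0.038 and the Hsp70 regulator Hspbp1 by 0.25 ± 0.034. Of these genes, Bag3 alone kept its call with the block, and the adjusted p of the other 5 there was 0.0648 to 0.131.

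Of 33 other genes of ER folding, degradation and stress, 5 rose and 2 fell (median 0.029). Cdnf, a neurotrophic protein resident in the ER, read -3.89, -3.78 and -3.18 in wild type and -1.71, -1.5 and -1.51 in SPORTS. It rose by 2.04 ± 0.19 (SE), 4.1-fold (limma adjusted p = 0.00195), and by 1.6 in the blocked fit (adjusted p = 0.00411). Hyou1, the ER Hsp110 that exchanges the nucleotide of BiP, read 1.09, 1.1 and 1.17 in wild type and 1.5, 1.51 and 1.51 in SPORTS. It rose by 0.39 ± 0.037, 1.31-fold (adjusted p = 0.00203), and by 0.33 with the block (adjusted p = 0.0235). Selenos and Fkbp14, a gene of ER-associated degradation and a prolyl isomerase gene, rose by 0.20 ± 0.043 and 0.31 ± 0.073. The Hsp70-like gene Hspa13 and the ER reductase gene Dnajc10 fell by 0.20 ± 0.033 and 0.19 ± 0.034. These 4 lost their calls with the block (adjusted p = 0.0605 to 0.229), and Selenos and Fkbp14 did so in 9 of 18 alternatives each.

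Of 23 tested genes of the integrated stress response, the arm that ATF4 serves, 6 rose and none fell (median 0.016). Phgdh, the first enzyme of serine synthesis, rose by 0.67 ± 0.053 (SE), 1.59-fold, from 3.67, 3.82 and 3.81 in wild type to 4.46, 4.39 and 4.46 in SPORTS (limma adjusted p = 0.00113). Nupr1, a stress-induced nuclear protein, rose by 0.95 ± 0.11, 1.93-fold (adjusted p = 0.00404). Atf3, a transcription factor of the same arm and also an immediate early gene, read -4.73, -5.07 and -4.18 in wild type and -2.69, -3.57 and -3.50 in SPORTS. It rose by 1.41 ± 0.32, 2.65-fold (adjusted p = 0.0302), with SPORTS replicate 1 above the other 2 SPORTS arrays. Without that array it differed by 1.12 (adjusted p = 0.0578). Its call ended in 8 of 18 alternatives, among them the block (0.93, adjusted p = 0.228) and any 1 array left out except wild type replicate 3. The range of the adjusted p was 0.025 to 0.265. Eif2ak2, which encodes the kinase PKR, rose by 0.30 ± 0.06 on its representative probe, while its other probe differed by 0.21 ± 0.10 without passing (adjusted p = 0.214). With the block, Eif2ak2 lost its call (adjusted p = 0.0609), and Phgdh and Nupr1 kept theirs (0.0185 and 0.0343). Nupr1 lost its call within row 2 (0.066).

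Of 13 other genes of mitochondrial protein quality control, 1 rose and 3 fell (median -0.039). Timm44, a subunit of the import motor, read -5.03, -4.81 and -4.83 in wild type and -5.81, -6.15 and -6.23 in SPORTS, where it was not well above background on any array. It differed by -1.17 ± 0.13 (SE, limma adjusted p = 0.00283), with a 95% interval of -1.48 to -0.86. Raising each SPORTS signal to the dimmest probe well above background on its array, where that was higher, left Timm44 2.13-fold lower. That figure leaves out the spread between arrays and any error of background subtraction, so it is not a lower limit. The measured difference of -1.17 was -0.38 with normexp background correction, and the call ended within row 2 (adjusted p = 0.0542). The protease gene Spg7, which encodes paraplegin, read -0.74, -0.68 and -0.62 in wild type and -1.38, -1.26 and -1.36 in SPORTS. It fell by 0.65 ± 0.053, 1.57-fold lower (adjusted p = 0.00116), in all 18 alternatives. Grpel2, a nucleotide exchange factor of mitochondrial Hsp70, fell on both of its probes, by 0.31 ± 0.047 and 0.30 ± 0.054, and lost its call with the block (adjusted p = 0.0908). Dnaja3, a mitochondrial J-domain gene, rose by 0.17 ± 0.045 (adjusted p = 0.0456) and kept its call in 5 of 18 alternatives. Its other probe differed by 0.10 ± 0.046 without passing (adjusted p = 0.181).

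**Figure D4:**
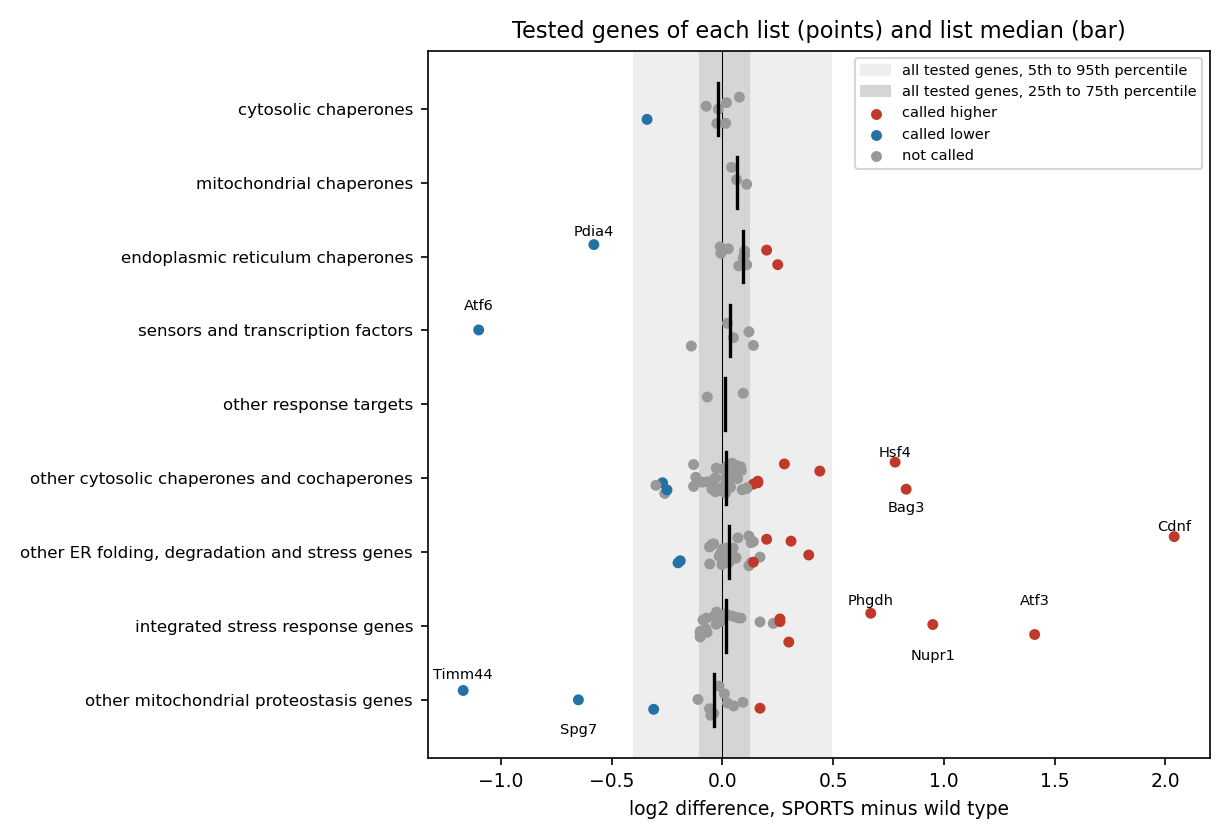
Log2 difference (SPORTS minus wild type) of the tested genes of the 5 member classes and the 4 further lists, 1 point a gene, coloured by call, with a bar at the median of each list. Grey bands show where 50% and 90% of all tested genes lie. List medians lie near 0, and the named outlying genes are Atf6 and Pdia4 among the members and Cdnf, Atf3, Nupr1, Bag3, Hsf4, Phgdh, Timm44 and Spg7 in the further lists.

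Markers of brain regions and cell types differed between the same arrays. Of the striatal projection neuron markers, 9 of 9 tested fell, while the tenth, Gpr6, was not above background on any array. Their linear signals, in units of the 75th percentile of an array, added up to between 30.5 and 35.8 on wild type arrays and between 9.87 and 11.2 on SPORTS arrays. Of the meningeal and fibroblast markers, 7 of 8 rose, and the sums lay between 10.3 and 12.4 in wild type and between 16.5 and 18.8 in SPORTS. Of the astrocyte markers, 3 of 8 rose, with sums of 174 to 192 and 197 to 205. Of the oligodendrocyte markers, 2 of 9 rose, with overlapping sums of 191 to 218 and 206 to 221. Among the hypothalamic markers 1 of 8 fell, among the endothelial markers 2 of 8 rose, and among the microglial markers 1 of 9 fell. None of the cerebellar, choroid plexus and red blood cell markers passed. Among all tested genes, 24.3% were called. All 9 pan-neuronal markers with a probe were well above background, 2 rose and 2 fell, and their sums, 63.1 to 65.9 and 63.9 to 64.9, overlapped. In the blocked fit 9 striatal markers fell and 5 meningeal markers rose, and none of the astrocyte or pan-neuronal markers passed. Cryab and Phgdh are known to be abundant in glia. In bulk tissue, fewer cells of a type and less RNA per cell cannot be told apart, and the part of these markers in the differences of the stress genes was not tested.

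**Figure D5:**
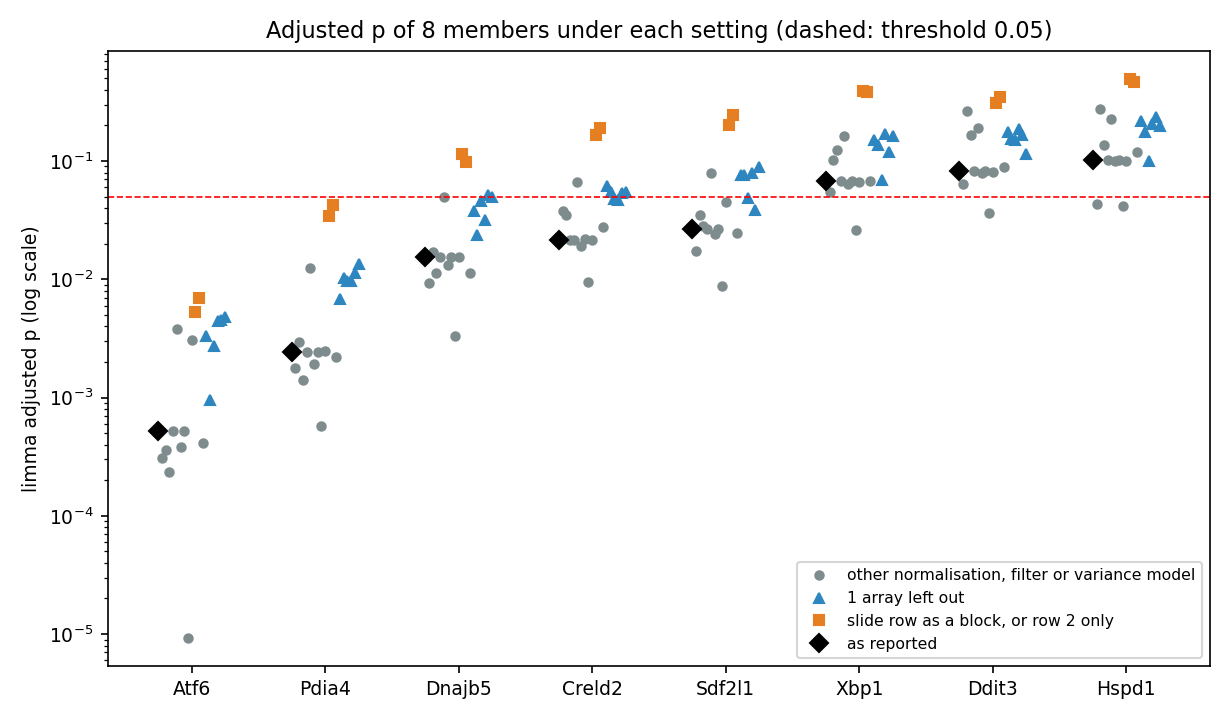
Adjusted p of limma's moderated test (log scale) for 8 members under the reported setting (black diamonds) and 18 alternatives, with the threshold of 0.05 dashed. Each gene is given by its representative probe or, where probes were averaged, by their mean. The other Atf6 probe, with a difference of 0.024 and no call, is not shown. Atf6 and Pdia4 stay below the line in every setting, Dnajb5, Creld2 and Sdf2l1 cross it when slide row is a block, and Xbp1, Ddit3 and Hspd1 lie mostly above it.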

How the data were processed

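The authors quantified the scans with Agilent Feature Extraction 10.10.1.1, per the file headers. Its processed intensity, the value used, is background-subtracted and spatially detrended, and the deposited series-wide table repeats it times 1 factor per array (1.38 to 1.47), with 0 columns of other samples.

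Each array held 58717 non-control spots, and 3075 outlier-flagged values were left out over the 6 arrays together. Spots of a probe were averaged as log2, and the log2 of the array's 75th percentile over these spots (1530 to 1628) was subtracted. Probes entered the test where over 0.5 of their spots passed the scanner's background flag on every array of at least 1 group (20657 of 30367). The groups were compared by limma 3.58.1 (R 4.3.3), two-sided, with Benjamini-Hochberg adjustment over all tested probes. At 0.05, 4364 probes passed (21.1%). The fit was also run on simulated data with independent noise and no slide row effect. That check therefore cannot bear on the overlap of slide row and group. Symbols came from matching transcript accessions to RefSeq (18005 probes), and the tested probe of highest mean signal represents a gene. Of the pathway lists, at most 4 called genes in each direction with the largest differences are named. Values per array are given for called members, members whose probes disagree, the brightest of each class and genes near the threshold, the last chosen after their values were seen. The members and lists were chosen with earlier results of these data known.

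Alternatives were other normalisations, normexp on median spot and background brightness (offset 50), the deposited table, other filters, outlier spots kept, another variance model, probe means, slide row (from the headers) as a block or row 2 alone, each array left out and, chosen after seeing the data, the percentile over probes.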

Additional observations from a re-analysis of the deposited data

How the results depend on the processing

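The direction of the 5 called members held in all 18 alternatives, and the calls of Atf6 and Pdia4 did too. Several alternatives could not change a direction. The deposited table, the filters and the other variance model gave these members the same differences as reported. The block and row 2 gave the same difference as each other. For Atf6 this rests on its representative probe, or on the mean of its 2 probes where probes were averaged. Its other probe differed by 0.024 and was not called. Called members numbered 5 as reported, 2 without the filter on dim probes, 2 with the slide row as a block, 2 within slide row 2 and 3 to 5 without any 1 array. With a trended and robust variance 8 were called (27.6%), where 28.8% of all tested genes passed. Of the 114 tested genes of the further lists, 26 were called, against 14 without the filter, 8 with the block, 6 within row 2, 32 with the trended and robust variance and 14 to 20 without any 1 array. Called probes numbered 4364, and 2343, 1597, 1220, 5139 and 2551 to 3194 in the same settings. The ER median exceeded the cytosolic median by 0.11, and by 0.063 to 0.11 without any 1 array. The block and row 2 use 1 wild type array for the contrast, and leaving out an array lowers the number of samples. No paired analysis was possible because the replicate numbers were given in accession order and pair no rats. Of the named further genes, Bag3, Cdnf, Hyou1, Phgdh and Spg7 kept their calls in all alternatives. With 3 arrays a group, the intervals of the members that did not pass reached from -0.27 to 0.28.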
